A study of Mus musculus with 9 samples.

Results

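Lung RNA of mice kept in hypoxia was compared with lung RNA of mice kept in normoxia, across all genes of the deposited count table. The comparison used 6 of the 9 libraries of the series, namely the 3 whose labels give hypoxia as the treatment and the 3 whose labels give normoxia. The series design describes a model of sustained hypoxia in mice, and the remaining 3 libraries, labelled as a Hif-1α knockdown after hypoxia, entered only the shared estimate of the spread. Oxygen level, length of exposure, strain, age, time of collection and the number of animals behind a library were not stated in any source used, so the p-values measure the spread between these libraries, which may in part be technical. The sample titles name muscle while the tissue field names lung. Sftpc, the surfactant protein C gene of alveolar type 2 cells, stood at 13001 to 17621 CPM (counts scaled to a common library size) in the 6 libraries, while 5 skeletal muscle markers summed to 3.45 to 18.1 CPM. Of these, the myosin gene Myh4 was under the floor of 3 counts in each library and Ckm, the muscle creatine kinase gene, was the highest single value at 13.6 CPM in hypoxia replicate 2.

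Falling oxygen stabilises the hypoxia-inducible factors, which switch on genes of glucose uptake, glycolysis and vessel growth. In the lung it also constricts the small arteries, through potassium and calcium channels of their smooth muscle, and sustained exposure remodels vessels and draws in immune cells. Solute carriers and ion channels move nutrients and ions across membranes, receptors pass on signals of hormones and neighbouring cells, and transcription factors set which genes are read. Non-coding genes give RNAs that are not translated, among them long non-coding RNAs and copies of genes that have lost their coding function.

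Library totals ran from 16229815 to 17620652 counts, so that 3 counts corresponded to 0.166 to 0.19 CPM. Mitochondrial genes took 1.74% to 2.08% of counts, and the replicates of a group differed by more than counting noise (chi-square over its degrees of freedom 11.9 to 23.5). Hypoxia replicate 2 stood apart from the other hypoxia libraries. On the first principal component of the 6 libraries, which held 39.2% of the variance, it scored 9.2 against 43.7 and 39.1 for hypoxia replicates 1 and 3 and -34.8 to -24.6 for normoxia. Summed CPM over 12 T and NK cell markers was 63.6, 76.4 and 61.8 in normoxia and 819, 243 and 684 in hypoxia replicates 1, 2 and 3, and all 12 markers were higher. The sum of 8 proliferation markers went from 75.8, 66.5 and 85.2 to 352, 112 and 319 CPM, again with all 8 higher. Red cell markers fell from 1306, 2392 and 3418 to 565, 673 and 615 CPM (4 of 5 lower), and endothelial markers went from 3899, 4512 and 4594 to 3617, 3189 and 3471 CPM (2 of 6 lower). Cardiomyocyte markers varied inside both groups, with sums of 785, 237 and 127 CPM in normoxia and 192, 1031 and 69.1 CPM in hypoxia. Adipocyte markers summed to 58.5, 8.34 and 9.24 CPM in normoxia and 29.2, 81.9 and 15.1 CPM in hypoxia. Neither list had a changed member, and normoxia replicate 1 and hypoxia replicate 2 were highest in both. In whole tissue, fewer cells of a type and less RNA per cell cannot be told apart.

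Of 17578 genes tested with the quasi-likelihood F-test of edgeR, 742 passed an adjusted p of 0.05, which is 4.22% of them. They were made up of 487 genes higher in hypoxia (2.77%) and 255 lower (1.45%), and the median log2 fold change over all tested genes was -0.01. Groups did not overlap in 22.2% of tested genes whatever their p, and in 484 of the 487 called rises and all 255 called falls. The rule that named the largest changes also asked for no overlap. A lack of overlap in a called gene below is therefore a description and adds nothing to its call. Transporters gave 29 changed genes of 596 tested, receptors 44 of 463, metabolic enzymes 24 of 827, transcription factors 44 of 861 and non-coding genes 35 of 2702. Adjusted p-values below are those of that edgeR test over all tested genes where no other test is given, and each fold change compares 3 hypoxia with 3 normoxia libraries.

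Many calls did not stand when 1 library was left out. Each such fit also had fewer libraries, so a call near the threshold could end whichever library was removed. In the 6 fits that each left out 1 of the 6 libraries, 125 rises and 59 falls were called every time. Rises numbered 285, 301 and 138 without normoxia replicates 1, 2 and 3 and 201, 750 and 206 without hypoxia replicates 1, 2 and 3. Falls numbered 225, 190 and 71, and 91, 215 and 95, in the same order. The Wald test of DESeq2 called 814 rises and 495 falls, and limma-voom 267 and 195. For genes below that were not called in every such fit, the text gives the libraries whose removal ended the call or the number of fits that kept it.

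**Figure D1:**
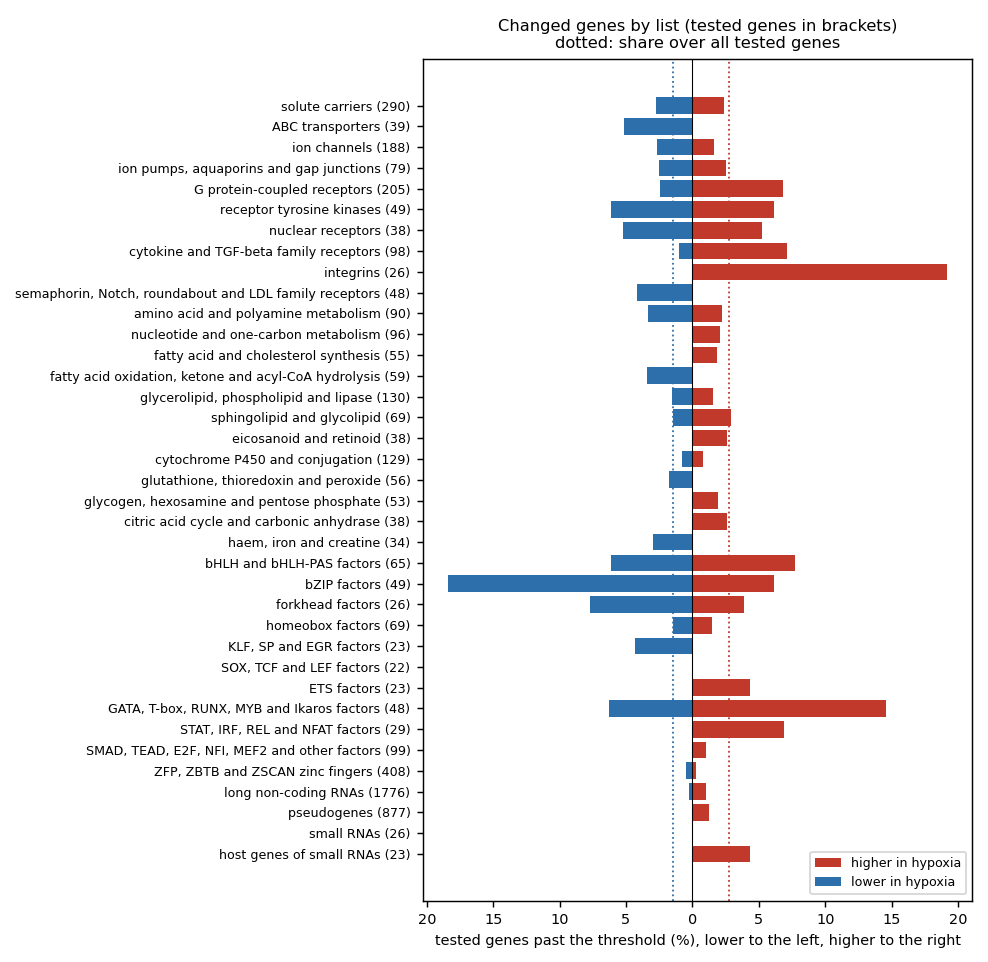
Share of the tested genes of each list that passed the threshold, in percent, with falls drawn to the left and rises to the right of 0; brackets hold the number of tested genes and dotted lines mark the shares over all tested genes (1.45% lower, 2.77% higher). The longest bars are those of integrins to the right (19.2%), bZIP factors to the left (18.4%) and the GATA, T-box, RUNX, MYB and Ikaros factors to the right (14.6%). These bars stand for 5, 9 and 7 genes, which numbered 1 to 5, 3 to 6 and 0 to 8 in the fits without 1 library.

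Among transporters, falls outnumbered rises, with 17 lower (2.85% of 596) and 12 higher (2.01%), against 1.45% and 2.77% over all tested genes. Solute carriers split, with 8 lower and 7 higher of 290, ion channels had 5 lower and 3 higher of 188, and both changed ABC transporters of 39 were lower. Ion pumps, aquaporins and gap junctions had 2 lower and 2 higher of 79. The medians of these 4 lists lay between -0.01 and 0.07. Higher transporters numbered 6, 5 and 2 without normoxia replicates 1, 2 and 3 and 2, 16 and 5 without hypoxia replicates 1, 2 and 3. Lower ones numbered 12, 8 and 4, and 7, 14 and 6.

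Slc6a2, which encodes the noradrenaline transporter that lung endothelium uses to clear circulating noradrenaline, had the highest level of the 6 largest falls among transporters. It stood at 174, 194 and 217 CPM in normoxia and 70.6, 89.9 and 86.6 CPM in hypoxia. Every hypoxia library lay below every normoxia library, and the gene was 2.37-fold lower (log2 fold change -1.24, SE 0.17, adjusted p = 0.0045). It lies on chromosome 8 at 92960079 to 93001667 on the plus strand (GRCm38). Slc6a6, the taurine transporter gene of the same family, went the other way, from 122, 164 and 151 CPM to 283, 267 and 208 CPM. The groups did not overlap, and the rise was 1.74-fold (0.80, SE 0.13, adjusted p = 0.0086). Both calls stood in each of the 6 fits without 1 library.

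Among mitochondrial carriers, Slc25a25, which exchanges ATP-magnesium for phosphate across the inner membrane and responds to calcium, went from 75.6, 65.3 and 79.7 CPM to 36.4, 27.7 and 35.8 CPM. That is a 2.21-fold fall (-1.14, SE 0.15, adjusted p = 0.0036), called in each fit without 1 library. Slc19a3, a thiamine transporter gene, stood at 6.64, 7.92 and 8.46 CPM in normoxia and 3.6, 3.76 and 3.51 CPM in hypoxia (-1.08, SE 0.22, adjusted p = 0.024). Slc16a10, which carries aromatic amino acids and thyroid hormone, fell by 0.82 on the log2 scale (adjusted p = 0.022), and Slc5a12, a sodium-coupled lactate carrier gene known from kidney, fell by 1.35 (adjusted p = 0.021). The Slc19a3 call ended without normoxia replicates 2 and 3 or hypoxia replicates 1 and 3. That of Slc16a10 ended without normoxia replicates 1 and 3, and that of Slc5a12 without normoxia replicates 2 and 3 or hypoxia replicate 3, with adjusted p up to 0.097 and 0.079.

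Of the carriers that rose, Slc1a5, a glutamine transporter gene, went from 166, 141 and 142 CPM to 207, 191 and 190 CPM (0.39, SE 0.08, adjusted p = 0.025). Slc5a6, which takes up biotin and pantothenate, went from 6.13, 5.86 and 6.06 CPM to 9.41, 9.17 and 9.43 CPM (0.63, SE 0.14, adjusted p = 0.031). Its values hardly varied inside either group. Slc26a10 (1.53, adjusted p = 0.028) and Slc28a2, a nucleoside transporter gene (1.14, adjusted p = 0.044), rose from means of 1.91 and 7.4 CPM. The calls of Slc1a5, Slc5a6, Slc26a10 and Slc28a2 ended in 4 or 5 of the 6 fits without 1 library, in each case without normoxia replicate 3 and without hypoxia replicates 1 and 3, with adjusted p up to 0.18. Without normoxia replicate 1 that of Slc28a2 and Slc5a6 ended, and without normoxia replicate 2 that of Slc1a5, Slc5a6 and Slc26a10.

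Among potassium channels, Kcna2, a voltage-gated channel gene, stood at 26.3, 25.2 and 21.6 CPM in normoxia and 9.97, 7.52 and 10.2 CPM in hypoxia. It was 2.64-fold lower (-1.40, SE 0.16, adjusted p = 0.0022), with no overlap. Kcnab2, whose product is a cytoplasmic beta subunit of such channels, went from 10.2, 11.8 and 10.1 CPM to 62.5, 22.6 and 41.5 CPM, a 3.94-fold rise (1.98, SE 0.30, adjusted p = 0.0067). Hypoxia replicate 2 was the lowest of the 3 hypoxia libraries, as it was for the T and NK cell markers, whose part in this rise was not tested. Both calls stood in each fit without 1 library. Kcne4, an accessory subunit gene, went from 36.4, 23.5 and 13.3 CPM to 6.76, 7.86 and 5.8 CPM (-1.84, SE 0.34, adjusted p = 0.014), a call that ended without hypoxia replicates 1 and 3 (adjusted p up to 0.067). The inward rectifier gene Kcnj2 fell by 0.67 (adjusted p = 0.03), and Kcnn4, the calcium-activated channel gene of blood cells, rose by 1.03 (adjusted p = 0.046). The Kcnj2 call stood only without normoxia replicate 1 and that of Kcnn4 only without hypoxia replicate 2.

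Other channel and transport genes changed as well. Scnn1g, the gamma subunit of the epithelial sodium channel that clears fluid from the airspace, stood at 188, 178 and 183 CPM in normoxia and 142, 130 and 134 CPM in hypoxia (-0.44, SE 0.08, adjusted p = 0.012). Its call ended without normoxia replicate 3 and without hypoxia replicate 3 (adjusted p up to 0.057). Gja5, the connexin 40 gene of arterial endothelium, went from 65.8, 72 and 79.9 CPM to 51.2, 43.2 and 43.2 CPM (-0.66, adjusted p = 0.045), and this call ended whichever of the 6 libraries was left out. Pkd2, a cation channel gene, changed by -0.35 (adjusted p = 0.045) and was called only without hypoxia replicate 2. The lipid flippase genes Atp8a1 (-0.49, adjusted p = 0.038) and Atp10a (0.60, adjusted p = 0.022) moved in opposite directions, and Atp8b4 (1.35, adjusted p = 0.027) rose. The Atp8a1 call stood only without hypoxia replicate 2. The Atp10a call ended without normoxia replicates 2 and 3 or hypoxia replicate 1, and that of Atp8b4 without normoxia replicates 1 and 3 or hypoxia replicates 1 and 3. Tmc8 (1.02, adjusted p = 0.013), of the transmembrane channel-like family, lost its call without normoxia replicate 3 and without hypoxia replicate 1. Of the ABC transporters, Abcc3, which exports conjugated compounds, fell by 0.50 (adjusted p = 0.026), and Abca8b by 0.55 (adjusted p = 0.043). The Abcc3 call ended without normoxia replicates 2 and 3 or hypoxia replicate 3, and the Abca8b call stood only without hypoxia replicate 3.

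**Figure D2:**
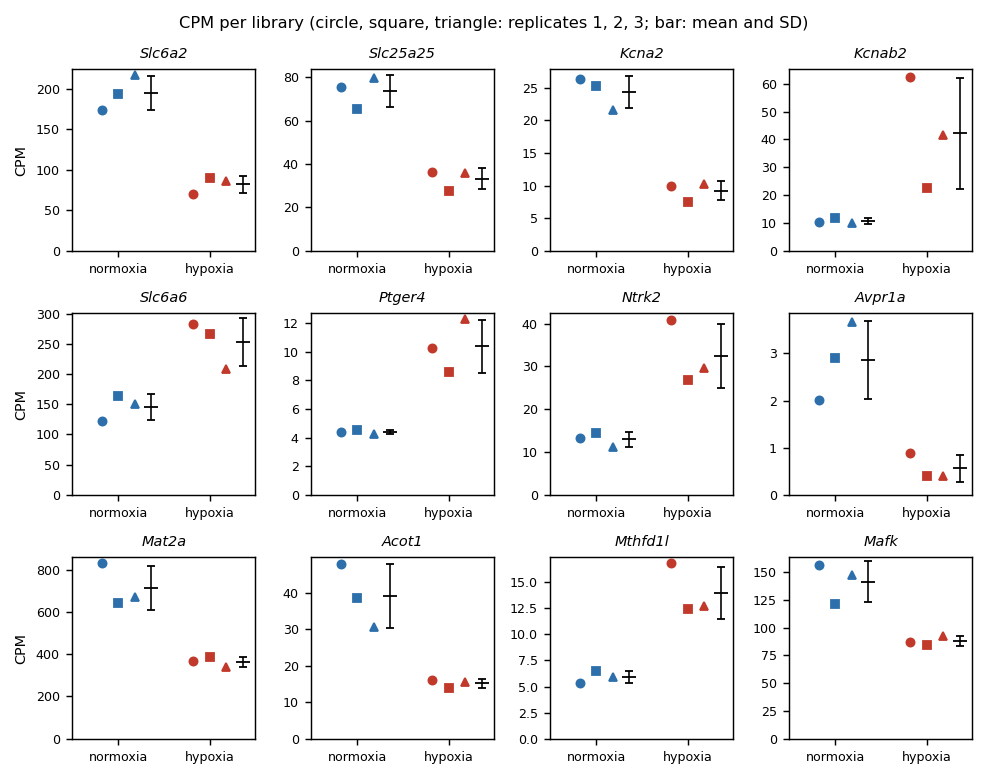
Level in CPM of 12 named genes in each library, with circles, squares and triangles for replicates 1, 2 and 3 and a bar for the mean and SD of each group (n = 3). Normoxia and hypoxia libraries do not overlap in any panel, which holds for nearly all called genes. The hypoxia libraries of Kcnab2 range from 22.6 to 62.5 CPM.

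Receptors changed in 9.5% of 463 tested genes, against 4.22% over all tested genes, with 31 higher (6.7%) and 13 lower (2.81%), and a median of -0.02. Of the 31 that rose, 14 belong to lists of T and NK cell, clock and other genes that are set aside here. G protein-coupled receptors had 14 higher and 5 lower of 205, cytokine and TGF-beta family receptors 7 higher and 1 lower of 98, and integrins 5 higher of 26. The integrin rises numbered 1 to 5 in the fits without 1 library. Receptor tyrosine kinases had 3 higher and 3 lower of 49. Hypoxia replicate 2 was the lowest hypoxia library in 25 of the 31 rises (80.6%), against 83.4% of all 487, and the summed T and NK cell markers were lowest there too. So was the sum of 7 monocyte and interstitial macrophage markers (464, 335 and 436 CPM in hypoxia, 237 to 269 in normoxia), which include Cx3cr1, although C1qa and C1qc were lowest in hypoxia replicate 1. The part of these cells in the rises was not tested. Higher receptors numbered 20, 20 and 14 without normoxia replicates 1, 2 and 3 and 15, 39 and 15 without hypoxia replicates 1, 2 and 3. Lower ones numbered 15, 7 and 2, and 4, 10 and 5.

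Ptger4, a receptor gene for prostaglandin E that signals through cyclic AMP, stood at 4.36, 4.53 and 4.26 CPM in normoxia and 10.3, 8.6 and 12.3 CPM in hypoxia. The normoxia values hardly differed, and the rise was 2.37-fold (1.24, SE 0.19, adjusted p = 0.0064). Ntrk2, the receptor gene for brain-derived neurotrophic factor, went from 13.2, 14.5 and 11.1 CPM to 40.9, 26.8 and 29.6 CPM, a 2.51-fold rise (1.33, SE 0.18, adjusted p = 0.0041). Itga4, the integrin alpha 4 gene of circulating leukocytes, went from 33.8, 55.2 and 35.5 CPM to 217, 88.2 and 147 CPM (1.86, SE 0.29, adjusted p = 0.0073). Styk1, a gene for a kinase-like membrane protein, rose from 1.08, 0.906 and 0.96 CPM to 4.49, 2.91 and 3.91 CPM (1.94, SE 0.28, adjusted p = 0.0059). In none of these 4 genes did the groups overlap, and each call stood in every fit without 1 library.

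Further rises were those of Hrh2, a histamine receptor gene (1.77, adjusted p = 0.011), Gpr55, which responds to lysophospholipids (1.70, adjusted p = 0.025), and the fractalkine receptor gene Cx3cr1 (1.60, adjusted p = 0.022). Gpr176, an orphan receptor known from the clock of the brain in mice, stood at 0.316, 0.121 and 0.66 CPM in normoxia and 1.44, 1.65 and 2.7 CPM in hypoxia (2.37, SE 0.53, adjusted p = 0.034). Xcr1, the chemokine receptor gene of cross-presenting dendritic cells, changed by 1.17 (adjusted p = 0.035) and Adgrg5 by 1.09 (adjusted p = 0.016). The integrin genes Itgax (1.11, adjusted p = 0.016) and Itgb2 (1.06, adjusted p = 0.036) and the cytokine receptor gene Il27ra (1.03, adjusted p = 0.022) rose as well. Hrh2 lost its call only without normoxia replicate 3. Cx3cr1 lost it without normoxia replicate 3 and hypoxia replicates 1 and 3, Gpr55 and Adgrg5 also without normoxia replicate 2, and Il27ra also without normoxia replicate 1. Gpr176 lost it without normoxia replicates 1 and 2 and hypoxia replicates 1 and 3. The calls of Itgax and Itgb2 stood only without hypoxia replicate 2, and that of Xcr1 in no such fit.

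Of the receptors that fell, some bind vasoactive hormones and are described first, a grouping made after their values were seen. Avpr1a, the vasopressin V1a receptor gene, stood at 2.02, 2.9 and 3.66 CPM in normoxia and 0.886, 0.399 and 0.402 CPM in hypoxia. It was 5.02-fold lower (-2.33, SE 0.41, adjusted p = 0.012), a call that ended without normoxia replicate 3 and without hypoxia replicate 3 (adjusted p up to 0.065). Adra1a, an alpha 1 adrenoceptor gene, went from 19.5, 26.5 and 40.5 CPM to 17.9, 11.4 and 10.4 CPM (-1.12, SE 0.27, adjusted p = 0.046). The groups came close, and the call ended without normoxia replicates 2 and 3 and without hypoxia replicates 2 and 3 (adjusted p up to 0.19). Calcrl, the receptor gene for calcitonin gene-related peptide and adrenomedullin, went from 1343, 1814 and 1864 CPM to 1097, 1226 and 1079 CPM (-0.56, SE 0.13, adjusted p = 0.036). Its ligand gene Adm, which is outside the receptor lists, went from 9.86, 8.16 and 10.7 CPM to 3.43, 3.7 and 1.9 CPM (-1.67, SE 0.27, adjusted p = 0.0078). Npr1, the receptor gene for atrial natriuretic peptide, fell by 0.43 (adjusted p = 0.021). The Calcrl call ended without normoxia replicates 2 and 3 and hypoxia replicates 1 and 3, that of Npr1 without normoxia replicates 2 and 3 and hypoxia replicate 1, and that of Adm in no such fit. The sum of 6 endothelial markers was 3189 to 3617 CPM in hypoxia against 3899 to 4594 CPM in normoxia. Of the 6, 2 were past the threshold, and the groups overlapped for Pecam1, Kdr and Tek. The part of these cells in the falls of Calcrl and Npr1 was not tested.

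Among growth factor receptors, Pdgfra, the platelet-derived growth factor receptor gene of fibroblasts, stood at 411, 430 and 503 CPM in normoxia and 326, 271 and 294 CPM in hypoxia (-0.59, SE 0.10, adjusted p = 0.0098). The call ended only without normoxia replicate 3 (adjusted p = 0.053), and the sum of 6 fibroblast markers, Pdgfra among them, was 1417 to 1635 CPM in normoxia and 1174 to 1597 CPM in hypoxia. Egfr, the epidermal growth factor receptor gene, went from 51.9, 34 and 34.7 CPM to 25.4, 23.3 and 25 CPM (-0.71, adjusted p = 0.048), and normoxia replicate 1 was far above the other normoxia libraries. Without that library the value was -0.48, and the call stood only without normoxia replicate 2. The ephrin receptor genes Epha2 (-0.44, adjusted p = 0.012) and Epha1 (0.49, adjusted p = 0.047) moved in opposite directions. Epha2 lost its call without normoxia replicate 3 and without hypoxia replicate 1, and Epha1 whichever of the 6 libraries was left out. Ghr, the growth hormone receptor gene (-0.35, adjusted p = 0.049), was called only without hypoxia replicate 2, and Stab1, a scavenger receptor gene (-0.31, adjusted p = 0.041), in no fit without 1 library. The adhesion receptors Adgra3 (-0.47, adjusted p = 0.011) and Adgrl3 (-0.65, adjusted p = 0.043) fell, the former without its call when normoxia replicate 3 or hypoxia replicate 1 was left out and the latter called only without normoxia replicate 1.

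Of 38 nuclear receptors, 4 changed, and all 4 belong to the clock and immediate early lists. Nr1d1, a repressor of the clock, stood at 37, 7.25 and 8.22 CPM in normoxia and 231, 201 and 216 CPM in hypoxia, and Nr1d2 at 69.5, 39.1 and 22.7 CPM and 247, 333 and 268 CPM. In both, normoxia replicate 1 was the highest of its group. Nr4a1 went from 299, 238 and 116 CPM to 58.4, 27.7 and 41.6 CPM and Nr4a3 from 48.4, 19.6 and 20.2 CPM to 9.64, 13.2 and 6.67 CPM, with adjusted p of 0.017 and 0.034. The Nr4a1 call ended without hypoxia replicate 3 (adjusted p = 0.074), and that of Nr4a3 without normoxia replicates 1 and 3 and hypoxia replicates 1 and 3 (adjusted p up to 0.12), while Nr1d1 and Nr1d2 passed in each fit without 1 library. No source used states the collection times, so time of day and hypoxia cannot be told apart for clock genes.

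Metabolic enzymes changed in 2.9% of 827 tested genes, against 4.22% over all tested genes, 13 higher (1.57%) and 11 lower (1.33%), with a median of 0.02. The 12 lists of enzymes had between 1 and 5 changed members each, and whether any list moved as a whole was not tested. Higher enzymes numbered 9, 7 and 4 without normoxia replicates 1, 2 and 3 and 7, 24 and 9 without hypoxia replicates 1, 2 and 3. Lower ones numbered 12, 14 and 7, and 7, 12 and 8.

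In methionine metabolism, Mat2a, which makes S-adenosylmethionine, the methyl donor of the cell, stood at 834, 641 and 671 CPM in normoxia and 370, 385 and 338 CPM in hypoxia. It was 1.96-fold lower (-0.97, SE 0.12, adjusted p = 0.0027). Ahcyl2, related to the enzyme that clears S-adenosylhomocysteine, went from 149, 148 and 171 CPM to 78.4, 93.7 and 77.8 CPM (-0.91, SE 0.11, adjusted p = 0.0027). In folate metabolism, Mthfd1l, a mitochondrial formate-producing enzyme, rose from 5.38, 6.47 and 5.88 CPM to 16.8, 12.4 and 12.7 CPM, by 2.36-fold (1.24, SE 0.16, adjusted p = 0.0036). These 3 calls stood in each fit without 1 library and none of the groups overlapped. Phgdh, the entry enzyme of serine synthesis, went from 8.54, 6.65 and 5.7 CPM to 26.3, 11.1 and 15.5 CPM (1.34, SE 0.30, adjusted p = 0.034), and was called only without hypoxia replicate 2. Ass1, the arginine-synthesis enzyme gene, rose by 0.49 (adjusted p = 0.045), and Amt, of the glycine cleavage system, fell by 0.54 (adjusted p = 0.038). Ass1 lost its call without normoxia replicates 2 and 3 and hypoxia replicates 1 and 3, and Amt kept its call only without normoxia replicate 2.

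In lipid metabolism, Acot1, a cytosolic acyl-CoA thioesterase, stood at 48.1, 38.5 and 30.6 CPM in normoxia and 16.2, 13.8 and 15.7 CPM in hypoxia. It was 2.56-fold lower (-1.36, SE 0.22, adjusted p = 0.0081). Lipg, the endothelial lipase gene, went from 75.2, 96.1 and 101 CPM to 49.6, 37.2 and 37.8 CPM, 2.19-fold lower (-1.13, SE 0.18, adjusted p = 0.0077). Acsbg1, an acyl-CoA synthetase gene, rose from 0.885, 1.09 and 0.96 CPM to 11.2, 4.05 and 6.67 CPM, by 7.44-fold (2.89, SE 0.37, adjusted p = 0.0036). The gap between the groups was wide, although hypoxia replicate 2 again held the lowest value of its group. Smpdl3b, a lipid-modifying phosphodiesterase of the plasma membrane, rose from 4.11, 3.2 and 3.6 CPM to 11.2, 7.75 and 10.6 CPM (1.43, SE 0.21, adjusted p = 0.0055). Pnpla7, a lysophospholipase gene, went from 18.3, 19.4 and 17.8 CPM to 32.1, 31.9 and 28.4 CPM (0.74, SE 0.12, adjusted p = 0.0074). Each of these 5 genes was called in every fit without 1 library.

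Further lipid genes also passed the threshold. Plpp3, which breaks down lysophosphatidic acid, fell by 0.50 (adjusted p = 0.013) and Cerk, the ceramide kinase gene, by 0.48 (adjusted p = 0.012). B4galnt1, a ganglioside synthase gene, rose by 0.83 (adjusted p = 0.0093), and Lpcat4 by 0.58 (adjusted p = 0.045). B4galnt1 lost its call only without normoxia replicate 3 and Cerk only without hypoxia replicate 3 (adjusted p = 0.054 and 0.053). Plpp3 lost its call without normoxia replicate 3 and without hypoxia replicate 1, and Lpcat4 kept its call only without hypoxia replicate 2.

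Among the remaining named enzyme genes, Cyp4b1, a lung cytochrome P450, stood at 779, 808 and 822 CPM in normoxia and 539, 574 and 534 CPM in hypoxia, a 1.46-fold fall (-0.55, SE 0.08, adjusted p = 0.0064) called in each fit without 1 library. Cbr2, the lung carbonyl reductase gene, went from 3839, 2656 and 2472 CPM to 4184, 5247 and 4450 CPM (0.63, SE 0.16, adjusted p = 0.049). Its normoxia replicate 1 was nearer to hypoxia than to the other normoxia libraries, and the call stood only without that library. Ephx1, the microsomal epoxide hydrolase gene, went from 188, 188 and 166 CPM to 239, 269 and 241 CPM (0.47, SE 0.09, adjusted p = 0.016) and lost its call only without normoxia replicate 3 (adjusted p = 0.083). Gpx3, the secreted glutathione peroxidase gene, went from 1100, 1308 and 1337 CPM to 888, 841 and 885 CPM (-0.52, adjusted p = 0.028). Sord, the sorbitol dehydrogenase gene, rose by 0.68 (adjusted p = 0.025), and Car14, a membrane carbonic anhydrase gene, by 0.67 (adjusted p = 0.045). The Gpx3 call stood only without normoxia replicate 1, that of Car14 only without hypoxia replicate 1, and that of Sord ended without normoxia replicates 1 and 3 and hypoxia replicate 1. Club and ciliated cell markers, whose sum was 23951 to 36848 CPM in normoxia and 24159 to 27680 CPM in hypoxia, had no changed member of 6.

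Transcription factors had 22 rises and 22 falls among 861 tested genes (2.56% each, against 2.77% and 1.45% over all tested genes), with a median of -0.05. Of these, 13 rises and 8 falls belong to the lists set aside. The bZIP factors had the highest share of changed genes, with 3 higher and 9 lower of 49 (24.5%) and a median of -0.14. Their falls numbered 3 to 6 in the fits without 1 library. The GATA, T-box, RUNX, MYB and Ikaros list had 7 higher and 3 lower of 48, the bHLH list 5 higher and 4 lower of 65, and the ZFP, ZBTB and ZSCAN zinc fingers 1 higher and 2 lower of 408. Rises of the GATA, T-box, RUNX, MYB and Ikaros list numbered 0 to 8 in the fits without 1 library, and 0 with limma-voom. None of 22 SOX, TCF and LEF factors passed. Higher factors numbered 12, 15 and 5 without normoxia replicates 1, 2 and 3 and 9, 32 and 9 without hypoxia replicates 1, 2 and 3. Lower ones numbered 22, 13 and 7, and 8, 14 and 8.

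The 3 bZIP factors that rose are the PAR family of clock output activators, Dbp, Hlf and Tef. Hlf stood at 17.1, 21.4 and 17.8 CPM in normoxia and 48.9, 76.9 and 64.4 CPM in hypoxia, and Tef at 207, 232 and 182 CPM and 479, 666 and 524 CPM. Hypoxia replicate 2 held the highest value of both, unlike in most rises. Nfil3, which represses the same sites, went from 23, 19.9 and 19.3 CPM to 5.48, 4.62 and 3.56 CPM. All 4 genes passed in each fit without 1 library. Time of day and hypoxia cannot be told apart for them, as for the nuclear receptors above.

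Mafk, a small MAF partner of other bZIP factors, stood at 156, 121 and 147 CPM in normoxia and 86.9, 84.3 and 92.8 CPM in hypoxia. It was 1.61-fold lower (-0.68, SE 0.10, adjusted p = 0.0049), called in each fit without 1 library. The stress response factor gene Atf4 went from 273, 197 and 237 CPM to 169, 150 and 182 CPM (-0.49, SE 0.12, adjusted p = 0.043), and its relative Atf5 from 78.7, 72.2 and 75.4 CPM to 54.9, 48.9 and 57.1 CPM (-0.49, adjusted p = 0.036). Creb3l1, a membrane-bound factor of the secretory pathway, changed by -0.83 (adjusted p = 0.047) and Nfe2l1, which controls proteasome genes, by -0.27 (adjusted p = 0.049). Atf4 kept its call only without normoxia replicate 2, and Atf5, Creb3l1 and Nfe2l1 lost theirs whichever of the 6 libraries was left out.

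Outside the lists set aside, 14 factors fell, the bZIP factors above among them. Gata2, a factor of endothelium and blood progenitors, stood at 216, 215 and 189 CPM in normoxia and 133, 122 and 134 CPM in hypoxia (-0.67, SE 0.13, adjusted p = 0.015). Heyl, a Notch target of vascular smooth muscle, went from 43.8, 60.2 and 56.8 CPM to 33.8, 24.7 and 33.6 CPM (-0.80, SE 0.16, adjusted p = 0.022). Foxf1, which lung mesenchyme and capillaries need, went from 358, 339 and 353 CPM to 264, 202 and 270 CPM (-0.51, SE 0.11, adjusted p = 0.032). Foxo4 (-0.35, adjusted p = 0.027), Tbx3 (-0.44, adjusted p = 0.034), Zfhx3 (-0.40, adjusted p = 0.043) and Zfp180 (-0.40, adjusted p = 0.04) moved in the same direction by less. The Gata2 call ended without hypoxia replicates 1 and 3 (adjusted p up to 0.054), and that of Heyl also without normoxia replicates 2 and 3. Foxf1 kept its call only without hypoxia replicate 2, and Foxo4 and Tbx3 only without normoxia replicate 1. Zfhx3 and Zfp180 lost theirs whichever of the 6 libraries was left out. Smooth muscle and pericyte markers (374 to 489 CPM in hypoxia, 537 to 566 in normoxia) had no changed member of 6, and their part in these falls was not tested, nor was that of the endothelium.

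Outside the lists set aside, 9 factors rose. Gfi1, a repressor active in lymphoid and myeloid cells, stood at 0.443, 0.483 and 0.42 CPM in normoxia and 6.37, 1.42 and 4.83 CPM in hypoxia (3.21, SE 0.52, adjusted p = 0.0086). Its call ended without normoxia replicate 3 (adjusted p = 0.052) and with limma-voom (adjusted p = 0.076). Stat4 (1.84, adjusted p = 0.022), Ikzf1 (1.22, adjusted p = 0.047), Satb1 (0.92, adjusted p = 0.024), Elf4 (0.72, adjusted p = 0.026) and Id2 (0.63, adjusted p = 0.022), all factors of lymphoid development, were each lowest in replicate 2 of the hypoxia group. For Ikzf1 the highest normoxia and the lowest hypoxia library both stood at 37.7 CPM. Mxd3, a MYC antagonist of dividing cells, was higher by 2.46 (adjusted p = 0.045). Gfi1 and Mxd3 were lowest in hypoxia replicate 2 as well, as were the summed T and NK cell and proliferation markers, whose part in these rises was not tested. Without normoxia replicate 3 or hypoxia replicates 1 or 3, the calls of Stat4, Ikzf1, Satb1, Elf4, Id2 and Mxd3 ended. Without normoxia replicate 1 those of Ikzf1, Satb1, Elf4, Id2 and Mxd3 ended, and without normoxia replicate 2 those of Stat4, Ikzf1, Elf4 and Mxd3. Hes6, a bHLH repressor, changed by 0.52 (adjusted p = 0.047) and lost its call whichever of the 6 libraries was left out.

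The Ikaros family split. Ikzf4, the Eos gene of regulatory T cells and other tissues, went from 6.13, 7.98 and 8.64 CPM to 3.93, 2.45 and 2.07 CPM (-1.43, SE 0.27, adjusted p = 0.016), a call that ended without normoxia replicate 3 and without hypoxia replicate 3. Among zinc finger genes, Zfp346, which encodes a protein that binds double-stranded RNA, went from 26.4, 28.8 and 27.2 CPM to 53.6, 46.6 and 46.8 CPM. That is a 1.78-fold rise (0.83, SE 0.13, adjusted p = 0.0074), called in each fit without 1 library and lowest, by a narrow margin, in hypoxia replicate 2. Zfp663 changed by -1.44 from a mean of 2.58 CPM (adjusted p = 0.029), and this call ended whichever of the 6 libraries was left out.

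Because factors that read the E-box CACGTG (the clock and other bHLH factors), the D-box TTATGTAA or TTACATAA (the PAR factors and Nfil3) and the cyclic AMP response element TGACGTCA (the CREB and ATF factors) were among those that changed, promoters were searched for these letters on both strands, from 250 bases before to 50 after each RefSeq start in GRCm38.p6. Of the 20 genes of the 4 coding classes that are named by rule outside the lists set aside and were called in every fit without 1 library, 16 had a promoter in that table and 4 held at least 1 of the motifs. Among the changed clock genes set aside, Hlf held a cyclic AMP response element, Tef and Bhlhe41 an E-box, and Per3 2 D-boxes. No such motif was found for the changed clock genes Dbp, Nr1d1, Nr1d2, Bhlhe40, Nfil3, Arntl, Npas2 and Clock, though some may lack a promoter in that table. The 4 genes named by rule are shown with the motif in capitals. The enzyme genes Smpdl3b and Pnpla7 rose, and the factor gene Mafk and the carrier gene Slc25a25 fell. The coordinates are chr4:132757122-132757421 on the minus strand for Smpdl3b, chr2:24975783-24976082 on the plus strand for Pnpla7, chr5:139791286-139791585 on the plus strand for Mafk and chr2:32424017-32424316 on the minus strand for Slc25a25.
Smpdl3b: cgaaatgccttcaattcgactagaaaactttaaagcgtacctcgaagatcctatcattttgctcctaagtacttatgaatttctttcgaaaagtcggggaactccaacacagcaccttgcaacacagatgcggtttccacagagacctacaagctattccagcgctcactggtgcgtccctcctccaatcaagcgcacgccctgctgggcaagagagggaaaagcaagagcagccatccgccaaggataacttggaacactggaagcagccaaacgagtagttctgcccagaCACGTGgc
Pnpla7: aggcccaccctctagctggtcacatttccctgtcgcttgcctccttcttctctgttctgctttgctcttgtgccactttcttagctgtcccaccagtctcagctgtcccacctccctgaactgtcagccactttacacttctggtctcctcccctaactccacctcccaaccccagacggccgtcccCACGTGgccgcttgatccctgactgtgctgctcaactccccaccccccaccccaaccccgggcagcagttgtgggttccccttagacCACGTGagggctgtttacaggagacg
Mafk: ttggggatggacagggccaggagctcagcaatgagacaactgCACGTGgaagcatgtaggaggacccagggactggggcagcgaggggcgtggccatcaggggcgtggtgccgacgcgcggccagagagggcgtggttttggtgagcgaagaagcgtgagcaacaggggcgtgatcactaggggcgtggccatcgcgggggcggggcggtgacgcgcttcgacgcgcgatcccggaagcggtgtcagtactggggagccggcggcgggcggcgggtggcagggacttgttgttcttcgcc
Slc25a25: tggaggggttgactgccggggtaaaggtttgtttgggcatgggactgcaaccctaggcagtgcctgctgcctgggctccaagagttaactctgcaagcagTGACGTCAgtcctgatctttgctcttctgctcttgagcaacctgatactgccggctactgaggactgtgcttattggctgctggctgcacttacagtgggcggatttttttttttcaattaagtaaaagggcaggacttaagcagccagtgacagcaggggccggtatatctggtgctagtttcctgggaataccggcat

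The motifs differed in how common they were. Over tested genes with a promoter in the table, 10.9% held the E-box, against 8.57% of those higher (30 of 350) and 12.4% of those lower (24 of 193) in hypoxia. The cyclic AMP response element was in 3.24% of tested genes, 1.71% of those higher and 5.18% of those lower (10 of 193). The D-box was in 0.804% of tested genes, 1.71% of those higher (6 of 350) and 1.04% of those lower. ACGTG, the only form of the hypoxia response element core that was searched and one that every E-box also holds, was in 27.6%, 21.7% and 28.5%. These shares are descriptions of the letters in the window, and no test was made of them.

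Non-coding genes were the class with the lowest share of changed members, 35 of 2702 tested (1.3%, against 4.22% over all tested genes). Of the 35, 30 were higher (1.11%, against 0.185% lower). The number of changed members depended on the method. With no filter on low counts, where more genes were tested, there were 51 rises and 13 falls. Of 12064 non-coding genes in the table, the rest were too low to be tested. Long non-coding RNAs had 18 higher and 5 lower of 1776, pseudogenes 11 higher of 877 and host genes of small RNAs 1 higher of 23. None of the 26 small RNAs that had a biotype passed, and the library kit was not one for small RNAs. A gene listed as U6 spliceosomal RNA had no biotype, so it was counted among genes of no class, and it did pass. Higher non-coding genes numbered 19, 25 and 9 without normoxia replicates 1, 2 and 3 and 13, 37 and 13 without hypoxia replicates 1, 2 and 3. Lower ones numbered 6, 7 and 1, and 1, 7 and 2.

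The nearest coding gene was tested for 27 of the 35 changed non-coding genes and was itself called for 11 (40.7%), in the same direction for 10 of them. Over all tested non-coding genes it was called for 114 of the 2328 whose nearest coding gene was tested (4.9%). Cd8a was the neighbour of 2 of the 11, so that these were 10 coding genes, at distances from 0 to 153125 bp. Gm39323, a long non-coding RNA gene that starts 2325 bp from the T cell gene Thy1 on chromosome 9, stood at 0.0632, 0.544 and 0.06 CPM in normoxia and 4.1, 1.65 and 5 CPM in hypoxia (3.96, SE 0.71, adjusted p = 0.012). Thy1 went from 11.5, 14.8 and 12.1 CPM to 104, 34.6 and 85.3 CPM. Gm44174 and Gm44175 lie 143 bp and 12598 bp from the T cell gene Cd8a on chromosome 6, and changed by 3.43 and 2.90 beside 3.67 for Cd8a. Gm19585, whose span ends 153125 bp from Satb1 on chromosome 17, rose from 0.696, 1.39 and 1.26 CPM to 6.2, 3.65 and 6.49 CPM (2.28, SE 0.33, adjusted p = 0.0054). The killer cell receptor pseudogenes Klra13-ps (2.23, adjusted p = 0.0083) and Klra14-ps (2.14, adjusted p = 0.0087) lie in the Klra cluster on chromosome 6, where the coding neighbour Klra9 of Klra14-ps changed by 2.15. Reads of such near-identical genes can be shared, so these values are uncertain one by one. Except for Gm44174, which kept its call only without hypoxia replicate 2, and Gm39323, which lost it without normoxia replicate 3 and hypoxia replicate 3, these non-coding genes passed in each fit without 1 library. The T and NK cell markers rose in the same libraries, and their part was not tested.

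Other changed non-coding genes overlapped a coding gene. In all, 12 of the 35 did so, 7 of them on the opposite strand, and whether reads were counted by strand is not stated, so that such pairs cannot be told apart. 1700023B13Rik, on the opposite strand of the cell cycle inhibitor gene Cdkn1a on chromosome 17, stood at 4.11, 1.75 and 1.62 CPM in normoxia and at 0.0554, 0.171 and 0.172 CPM in hypoxia, where each library had at most 3 counts. Its fitted change was -4.16 (SE 0.65, adjusted p = 0.0074) beside -2.18 for Cdkn1a, which went from 399, 124 and 153 CPM to 42, 45.5 and 61.8 CPM. Normoxia replicate 1 was the highest library for both genes. 9330175E14Rik overlaps Nlrc5, the activator of MHC class I genes, on the opposite strand (0.85 beside 1.05), and 1810019D21Rik overlaps the splicing factor gene Esrp2 in the same way (-0.68 beside -0.42). The Esrp2 call stood only without hypoxia replicate 2. Gm9899 overlaps the potassium channel gene Kcnk3 on the opposite strand, and went from 3.6, 4.23 and 4.86 CPM to 1.55, 2.17 and 1.38 CPM (-1.31, SE 0.28, adjusted p = 0.026) while Kcnk3 changed by -0.15 (adjusted p = 0.62). The exception in direction was Gm48583, a processed pseudogene inside Dapk1, which rose by 1.11 while Dapk1 fell by 0.79. The calls of 9330175E14Rik, 1810019D21Rik and Gm9899 stood in 2 of the 6 fits without 1 library and that of Gm48583 in 4. Gm48583 lost its call without hypoxia replicates 1 and 3, 9330175E14Rik and 1810019D21Rik without normoxia replicates 1 and 3 and hypoxia replicates 1 and 3, and Gm9899 without normoxia replicates 2 and 3 and hypoxia replicates 1 and 3. Cdkn1a lost its call only without hypoxia replicate 1 (adjusted p = 0.056), and 1700023B13Rik passed in all 6.

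For the other non-coding genes named here, the nearest coding gene had no call or was not tested. Gm14029, whose nearest coding gene Slc20a1 lies 14817 bp away and changed by 0.17, rose from 0.379, 0.181 and 0.24 CPM to 2.33, 1.31 and 2.24 CPM (2.85, SE 0.43, adjusted p = 0.0067). Gm10076 went from 7.21, 8.94 and 4.38 CPM to 36.3, 62.6 and 19.5 CPM (2.53, SE 0.45, adjusted p = 0.012), with the highest value in hypoxia replicate 2, and its nearest coding gene Spry2 is 209736 bp away. AU020206 was the most abundant of the risen non-coding genes that are named here, at 183, 210 and 206 CPM in normoxia and 311, 264 and 296 CPM in hypoxia (0.54, SE 0.10, adjusted p = 0.014). ENSMUSG00000115801, a long non-coding RNA gene on chromosome 14, went from 7.21, 6.89 and 4.56 CPM to 12.2, 13.7 and 14.3 CPM (1.11, SE 0.19, adjusted p = 0.0097). Miat (2.42, adjusted p = 0.049), Gm2682 (1.42, adjusted p = 0.03), Mir142hg, the host of the blood cell microRNA miR-142 (1.20, adjusted p = 0.041), and the processed pseudogenes Gm4739 (1.66, adjusted p = 0.0087) and Gm12250 (1.87, adjusted p = 0.0098) rose. The second nearest coding gene of Gm12250, Igtp, lies 10544 bp away and changed by 0.93. Gm42528 (-0.87, adjusted p = 0.032) and Gm9917 (-0.57, adjusted p = 0.01) fell. Gm14029, ENSMUSG00000115801 and Gm4739 passed in each fit without 1 library, and Miat in none. Gm10076 and Gm12250 lost their call only without normoxia replicate 3, Gm9917 without that library and without hypoxia replicate 1, and AU020206 without normoxia replicate 3 and hypoxia replicates 1 and 3. Gm2682 lost its call without those 3 and normoxia replicate 1, Gm42528 without those 3 and normoxia replicate 2, and Mir142hg kept its call only without hypoxia replicate 2.

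**Figure D3:**
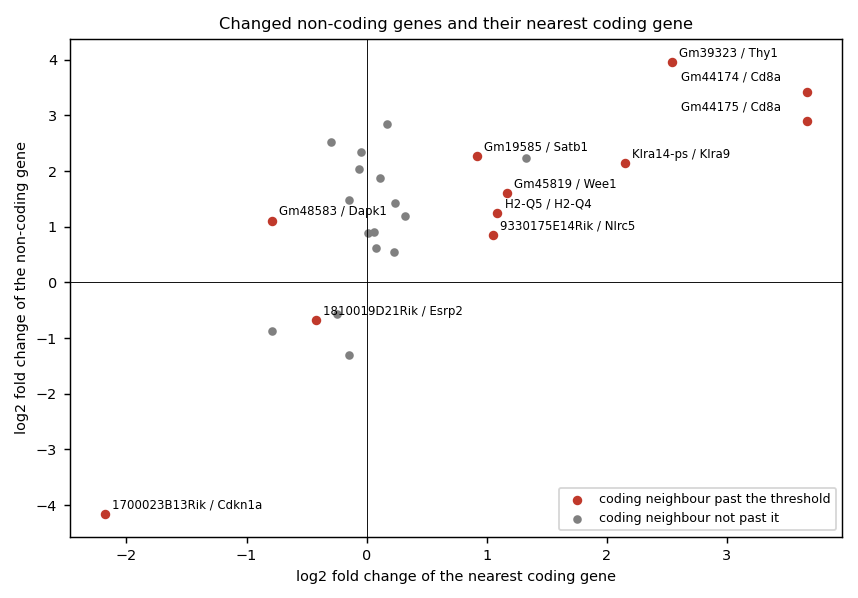
Log2 fold change of each changed non-coding gene (vertical) against that of its nearest coding gene (horizontal), for the 27 whose nearest coding gene was tested; red points have a coding neighbour past the threshold and carry both names. Of the 11 red points, 10 lie in the quadrants where both genes moved in the same direction, and Gm48583 with Dapk1 is the exception.

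Among genes of none of the 5 classes, 379 rose and 187 fell of 12129 tested. Tex11, known from meiosis in the testis, stood at 1.33, 1.27 and 1.14 CPM in normoxia and 6.59, 6.27 and 5.69 CPM in hypoxia. It rose 4.94-fold (2.31, SE 0.22, adjusted p = 0.00084) with little spread in either group, and hypoxia replicate 2 lay between the other hypoxia libraries. Spn, the CD43 gene of leukocytes, went from 19.5, 28.9 and 20 CPM to 163, 62 and 124 CPM (2.35, SE 0.30, adjusted p = 0.0036). The DNA helicase gene Pif1 (3.32, adjusted p = 0.014), the replication gene Ticrr (2.56, adjusted p = 0.041) and the mast cell chymase gene Cma1 (2.70, adjusted p = 0.041) rose from means of 0.366 to 0.575 CPM. These 3 calls stood only without hypoxia replicate 2, and with limma-voom the adjusted p was 0.11 to 0.15.

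The falls outside the classes were led by Spon2, which encodes a secreted matrix protein. It went from 46.8, 18.7 and 53.9 CPM to 6.15, 2.05 and 3.91 CPM, 9.83-fold lower (-3.30, SE 0.46, adjusted p = 0.0045). Replicate 2 was the lowest library of both groups, and the groups did not overlap. Rasl11a, a small GTPase gene, went from 34.8, 26.5 and 31.3 CPM to 9.97, 7.86 and 11.2 CPM, 3.19-fold lower (-1.67, SE 0.17, adjusted p = 0.0011). Fam124b went from 8.79, 11.5 and 11 CPM to 2.99, 2.17 and 2.64 CPM (4-fold lower, SE of the log2 value 0.24, adjusted p = 0.0027). Spon2, Rasl11a and Fam124b, like Tex11 and Spn, passed in each fit without 1 library. Adamts4, a matrix protease gene, changed by -1.75 (adjusted p = 0.041) and was called only without normoxia replicate 2. A gene listed as U6 in the table changed by -1.84 from a mean of 2.05 CPM (adjusted p = 0.034) and was called only without normoxia replicate 1.

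**Figure D4:**
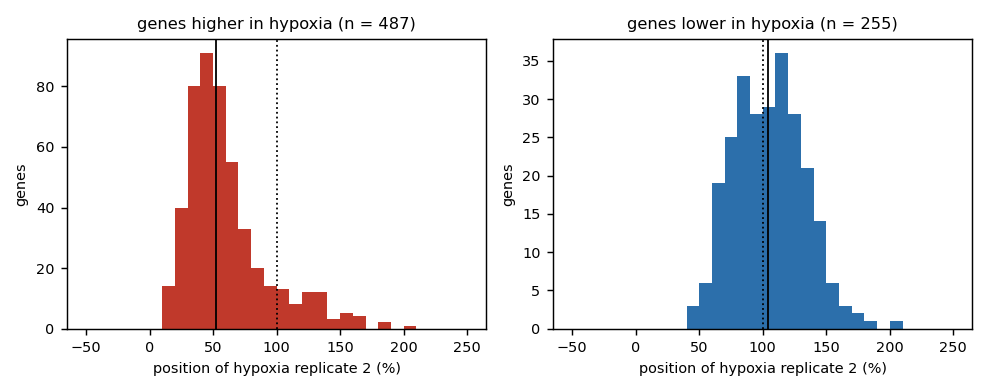
Position of hypoxia replicate 2 between the normoxia mean (0%) and the mean of hypoxia replicates 1 and 3 (100%, dotted line), in percent, for the 487 genes higher and the 255 lower in hypoxia; solid lines mark the medians. The median lies at 52.5% for genes that rose and at 104% for genes that fell.

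Rises and falls differed in how hypoxia replicate 2 behaved. That library held the lowest hypoxia value in 406 of the 487 rises (83.4%), and lay at a median of 52.5% of the way from the normoxia mean to the mean of the other hypoxia libraries. Among the 255 falls it held the highest hypoxia value in 87 (34.1%) and lay at a median of 104% of the way. By class, the median position for rises was 46.6% for transcription factors, 59.6% for receptors, 66.6% for non-coding genes, 74.3% for transporters and 78.3% for metabolic enzymes. For falls it was between 93.9% and 117% in all 5 classes. These positions come from the libraries that made the calls and are a description.

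A fixed list of 16 genes that hypoxia or lung vessels are known for was taken whatever their call. None of the 16 passed in the edgeR test of all 9 libraries. The list does not hold every such gene, and Adm, described above with Calcrl, is not on it and fell in that test (-1.67, adjusted p = 0.0078). Trpc6, a calcium channel gene of lung arteries, stood at 29, 30.6 and 40.2 CPM in normoxia and 22.2, 23.8 and 19.6 CPM in hypoxia (-0.61, 95% interval -0.95 to -0.26, adjusted p = 0.056). Bmpr2, the receptor gene most often mutated in heritable pulmonary hypertension, went from 913, 1166 and 1000 CPM to 774, 824 and 693 CPM (-0.43, 95% interval -0.67 to -0.18, adjusted p = 0.062). Neither pair of groups overlapped, and the intervals, which are not adjusted for the number of genes, left out 0. The endothelin receptor gene Ednrb was at -0.42 (adjusted p = 0.15) and Ednra, whose interval ended at -0.00, at -0.20 (adjusted p = 0.28). The oxygen-sensitive channel genes Kcna5 and Kcnk3 were at 0.24 and -0.15, with 95% intervals of -0.77 to 1.25 and -0.43 to 0.13. Adora2a, an adenosine receptor gene, was at 0.81 (adjusted p = 0.089) and lowest in hypoxia replicate 2 of its group, and Adora2b was at -0.28 (adjusted p = 0.45). Some alternatives did call 4 of the 16. Trpc6, Bmpr2 and Adora2a passed with the DESeq2 Wald test (adjusted p = 0.01, 0.0086 and 0.023) and, with Ednrb, in edgeR with no filter on low counts (0.007, 0.0081, 0.027 and 0.032). Bmpr2 also passed without normoxia replicate 1 (adjusted p = 0.045) and Adora2a without hypoxia replicate 2 (adjusted p = 0.0062).

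The hypoxia-inducible lactate exporter gene Slc16a3 stood at 14.3, 12.3 and 12.8 CPM in normoxia and 13.4, 11.6 and 12 CPM in hypoxia, with a 95% interval of -0.40 to 0.22. Car9, a classic target of the hypoxia-inducible factors, was at 1.93 to 2.53 CPM and 1.71 to 2.82 CPM (0.17, 95% interval -0.51 to 0.84), and Car4, the carbonic anhydrase gene of lung capillaries, at -0.22 (adjusted p = 0.46). The glucocorticoid receptor gene Nr3c1 was at -0.11 (95% interval -0.31 to 0.10), and the metabolic regulators Ppara and Ppargc1a at -0.25 and -0.30, with 95% intervals that spanned 0 and ended at 0.61 and 0.40 on the upper side. Of the abundant nuclear RNAs, Neat1 was at 2045 to 2125 CPM in normoxia and 2150 to 2415 CPM in hypoxia (0.15, adjusted p = 0.53). Malat1 was at 921, 518 and 378 CPM in normoxia and 454, 473 and 524 CPM in hypoxia, so that normoxia spanned the hypoxia range.

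**Figure D5:**
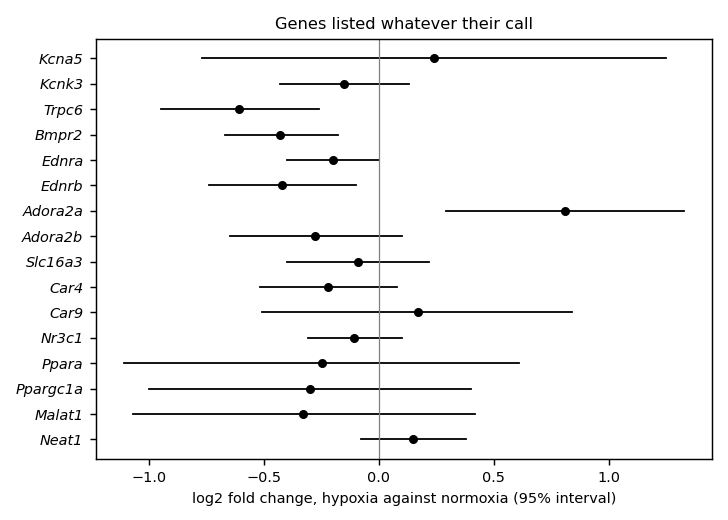
Log2 fold change of the 16 genes listed whatever their call, with the 95% interval of each, not adjusted for the number of genes; the line at 0 marks equal levels. Intervals for Trpc6, Bmpr2, Ednrb and Adora2a leave out 0, as does that of Ednra, which ends at -0.00, and no gene passed the adjusted threshold.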

How the data were processed

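The authors deposited a table of whole-number counts of reads per gene for 9 mouse lung libraries, not normalised. Total RNA was the input of a NEBNext Ultra RNA kit, per the labels' protocols. The tools named in the submitters' processing notes are HISAT2, TopHat, StringTie, bcl2fastq, DESeq and limma, with build mm10. No source used here says which of them made the counts or how strand was treated.

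The counts of 30865 genes were tested in R 4.3.3 with edgeR 4.0.16. Of these, 17578 passed filterByExpr. Scaling was by TMM. The quasi-likelihood fit took in all 9 libraries, with a mean for each of the 3 groups, which left 6 residual degrees of freedom (common coefficient of biological variation 17.3%). Hypoxia was set against normoxia with the quasi-likelihood F-test and Benjamini-Hochberg adjustment across the tested genes, at a threshold of 0.05. The F statistic gave each standard error. Levels are CPM scaled by TMM. Floors and counts cover counting error only. On simulated counts of 17294 genes, 66% of changes of log2 1 and 80% of log2 2 were recovered, with 9 false calls.

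Genes fell into 4 coded classes by symbol and 1 non-coding class by biotype, in 37 lists, each described by its count and median without a test of the list. Named were, per class and among genes of no class, the 6 largest rises and 6 largest falls past the threshold whose groups did not overlap and whose mean reached 1 CPM. To these were added up to 4 further members of each list by smallest p, and 16 genes whatever their call. T and NK, B, red cell, platelet, interferon, MHC, cell cycle, clock, heat shock, immediate early, histone and cytokine lists (1306 genes) were set aside from this naming, as were predicted genes and immunoglobulin or T cell receptor segments outside the non-coding class. Nuclear receptors, PAR bZIP factors, Nfil3 and the coding neighbours of non-coding genes were named outside the rule, after their values were seen. The classes, lists and genes were chosen with earlier results of these data known.

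Alternatives were DESeq2 1.42.0 size factors and its Wald test, limma-voom (limma 3.58.1), no filter, at least 1 CPM in 3 libraries, only the 6 libraries, a replicate block, and each library left out. Positions are those of GENCODE M21 (GRCm38), matched by gene ID for 30388 genes; the positions in the deposited table matched it for 639. Promoters are RefSeq's for GRCm38.p6. One named gene past the threshold is not reported here.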

Additional observations from a re-analysis of the deposited data

How the results depend on the processing

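Among the named genes, the direction turned for 3, none of them past the threshold: with 1 library left out, Kcna5 ranged from -0.00 (without hypoxia replicate 2) to 0.48, Ppara from -0.66 to 0.01 (without hypoxia replicate 3) and Malat1 from -0.57 to 0.11 (without normoxia replicate 1). Of the 126 named genes past the threshold, 123 kept their call with DESeq2 size factors, 125 at 1 CPM in 3 libraries, 122 with no filter, 126 with the DESeq2 Wald test, 87 with limma-voom and 76 in a fit of only the 6 libraries. The median log2 change of all genes lay between -0.02 and 0.01 in every alternative run. With no filter on low counts there were 851 rises and 442 falls; transporters had 20 and 26, metabolic enzymes 37 and 22 and non-coding genes 51 and 13, while 25 receptors and 38 transcription factors fell. With the DESeq2 Wald test there were 814 and 495, with 22 and 27 transporters, 33 and 26 enzymes, 34 and 35 transcription factors and 47 and 17 non-coding genes, and 21 receptors fell. With only the 6 libraries there were 276 and 168, with 3 and 11 transporters, 6 lower receptors, 10 higher transcription factors and 18 higher non-coding genes. With limma-voom there were 267 rises, among them 6 transporters, 8 enzymes, 10 transcription factors and 16 non-coding genes, and 7 receptors fell. The cause of these moves was not tested.

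With the replicate number as a block there were 282 rises and 118 falls, with 5 and 9 transporters, 19 and 7 receptors, 12 and 10 transcription factors and 14 and 3 non-coding genes, and 68 of the 126 named genes kept their call. Deviations of same-numbered libraries correlated at -0.14, -0.07 and 0.27 across genes. No source used states whether the numbers pair the libraries, and so few correlations cannot decide it. Without 1 library, rises numbered 138 to 750 and falls 71 to 225; the ranges were 2 to 16 and 4 to 14 for transporters, 14 to 39 and 2 to 15 for receptors, 4 to 24 and 7 to 14 for enzymes, 5 to 32 and 7 to 22 for transcription factors, and 9 to 37 and 1 to 7 for non-coding genes. Depth limits the low genes: 3 counts are 0.166 to 0.19 CPM, so genes under 1 CPM in a group rest on few counts.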

Other observations

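Gene families outside the 5 classes were counted by symbol, a choice made after the values were seen. Regulators of G protein signalling, which shorten the signal of G protein-coupled receptors, split: of 16 tested, Rgs14 (1.00, adjusted p = 0.029) and Rgs16 (1.58, adjusted p = 0.029) rose while Rgs5 (-0.89, adjusted p = 0.048) and Rgs9 (-0.85, adjusted p = 0.0082) fell in the edgeR test (2.77% of all tested genes rose and 1.45% fell). Rgs5, a pericyte gene, stood at 15.7, 16.9 and 15.2 CPM in normoxia and 8.75, 9.69 and 7.36 CPM in hypoxia, and was called only without hypoxia replicate 2. Rgs14 lost its call without normoxia replicates 1 and 3 and hypoxia replicates 1 and 3, and Rgs16 without replicates 2 and 3 of either group. Rgs9 went from 35.5, 31.1 and 30.1 CPM to 17.5, 18.9 and 17.1 CPM and was called in each fit without 1 library. Of 18 phosphodiesterases only Pde4b, which breaks down cyclic AMP, passed, at 186, 194 and 217 CPM in normoxia and 97.5, 74.2 and 95.8 CPM in hypoxia (-1.16, SE 0.15, adjusted p = 0.0036). Sik1, a kinase gene induced by cyclic AMP, went from 195, 224 and 193 CPM to 102, 113 and 93.5 CPM (-0.99, SE 0.10, adjusted p = 0.0015). Both calls stood in each fit without 1 library.

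Eln, the elastin gene, stood at 278, 281 and 404 CPM in normoxia and 117, 167 and 193 CPM in hypoxia (-1.01, SE 0.19, adjusted p = 0.014), a call that ended only without normoxia replicate 3 (adjusted p = 0.061). Of 35 ADAM and ADAMTS proteases, Adamts1, Adamts4, Adamts15 and Adam3 fell and Adamts14 rose, with a median of -0.12 over the 35. Adam3 lost its call without normoxia replicates 2 and 3 and hypoxia replicates 1 and 3, Adamts4 was called only without normoxia replicate 2, and the other three passed in each fit without 1 library. Adamts1 went from 255, 253 and 269 CPM to 152, 141 and 132 CPM, and Adamts15 from 151, 75 and 83.4 CPM to 42, 42.5 and 42.2 CPM, with the hypoxia libraries nearly equal and normoxia replicate 1 standing apart. Of 36 collagens, Col5a3 passed (-1.16, adjusted p = 0.04), a call that stood only without hypoxia replicate 3, and the median over the 36 was -0.15. Rbm3, a cold-inducible RNA-binding protein gene, was the 1 of 37 RNA-binding motif genes that passed. It rose from 138, 142 and 107 CPM to 248, 223 and 214 CPM (0.83, SE 0.13, adjusted p = 0.0077), and its processed pseudogene Rbm3-ps, whose reads cannot be told apart from it with certainty, by 1.28 (adjusted p = 0.037), a call that ended without replicates 1 and 3 of either group.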
